A study of Mus musculus with 3 samples.

Results

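Sustentacular cells are the supporting cells of the sensory epithelium of the vomeronasal organ (VNO), and they were described here in 3 single-cell RNA-seq libraries of dissociated mouse VNO. Cells were selected on measured values. A barcode was kept with 200 to 9000 detected genes and at most 10% of its UMIs from mitochondrial genes, and a kept barcode was taken as a sustentacular cell with at least 4 UMIs of Sult1e1 and Krt23 together, at least 5 UMIs of Krt8 and Krt18 together, under 5 UMIs summed over Vmn1r and Vmn2r receptor genes, under 5 UMIs of Calb2 and Chga together, and at most 0.1% of UMIs from Krt5, Krt14 and Krt15. This rule chose 1922 of the 15711 kept barcodes. The P10 control library came from OMPCre Heterozygous animals and gave 632 of 4795 kept barcodes, or 13.2% with a 95% Clopper-Pearson interval of 12.2 to 14.2%. The P10 mutant library came from OMPCreR26AP2e Double Heterozygous animals and gave 756 of 3956, or 19.1% with an interval of 17.9 to 20.4%. The 3-month mutant library had that same double heterozygous genotype and gave 534 of 6960, or 7.67% with an interval of 7.06 to 8.32%. The animals of all 3 libraries were male, on a mixed C57 BL/6J and 129P2/OlaHsd background, and each carried an OMPCre allele. That allele places Cre under the control of Omp, a gene of mature sensory neurons, and the R26AP2e allele carries Tfap2e (AP-2ε) at the Rosa26 locus for expression after Cre recombination. The study states a mitochondrial limit of 5% for its adult VNO data, which are not among these 3 libraries. Under that limit 138, 101 and 189 cells were chosen here. The shares were 8.76%, 7.92% and 4.16%, so that the P10 mutant no longer stood above the control. Each group was 1 library, and the number of animals behind a library is not given in the sources used here.

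Sustentacular cells span the sensory epithelium, with nuclei in a layer above the neurons, and they are joined to each other and to neuronal dendrites near the lumen. Supporting cells of nasal epithelia are known for simple-type keratins, for enzymes that act on foreign compounds and odorants, for ion and water transport at the surface, and for uptake of dead cells. AP-2ε is a transcription factor known in the VNO from neurons of the basal lineage.

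The 3 libraries held 8202, 8864 and 10293 barcodes and 83870584, 80760046 and 70074800 UMIs, in the order P10 control, P10 mutant and 3-month mutant. The chosen cells had median depths of 19428, 16284 and 16254 UMIs and median gene numbers of 4403, 4069 and 3853. Their median mitochondrial share was 6.49%, 7.15% and 5.86%. Levels below are pooled over the cells of a library as counts per 1000000 UMIs (CPM), a CPM carries an exact Poisson 95% interval, and a ratio of 2 CPM carries an exact conditional interval. All intervals cover counting error only, not the spread between animals or libraries. Those of CPM and of ratios also leave out the spread between cells. With 1 library per group no comparison was tested. Genotype and library cannot be told apart in the P10 comparison, nor can age and library in that of both mutants, and no control of the older age was analysed here.

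The rule was graded at its edges. At exactly 4 UMIs of Sult1e1 and Krt23 there were 42, 61 and 34 chosen cells in the P10 control, the P10 mutant and the 3-month mutant, and 69, 68 and 49 cells met every other term with 3 UMIs. The limit on basal keratins alone left out 57, 30 and 161 cells, the limit on Calb2 and Chga left out 52, 59 and 14, and the receptor limit left out 13, 14 and 15. The 3-month library therefore lost most cells to the basal keratin term and few to the neuronal ones.

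The label held for part of the chosen cells. Of the 7 genes named as markers, Meg3, Cldn9 and Igfbp2 were not used by the rule, and the chosen cells were divided by them after the data were seen. Cells with at least 0.05% of UMIs from these 3 genes together are called marker-positive and numbered 433 of 632 cells of the P10 control (68.5%), 575 of 756 cells of the P10 mutant (76.1%) and 353 of 534 cells of the 3-month mutant (66.1%). The remaining 199, 181 and 181 cells are called marker-negative. Few cells lay near the limit, with 10, 22 and 12 cells from 0.025% to under 0.05%, and 20, 33 and 23 cells from 0.05% to under 0.1%.

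Meg3, an imprinted long non-coding RNA on chromosome 12 (GRCm38 109541001 to 109571726, plus strand), stood at 5556, 5462 and 2677 CPM in marker-positive cells of the P10 control, P10 mutant and 3-month mutant, against 17.2, 30.2 and 14.7 CPM in marker-negative cells. Cldn9, a tight junction claudin, stood at 483, 482 and 277 CPM against 18.3, 12.3 and 7.08 CPM. Igfbp2, a binding protein of insulin-like growth factors, stood at 1579, 1339 and 938 CPM against 14.0, 49.3 and 11.4 CPM. These differences between the cell classes follow from the division itself. Fezf2, a transcription factor used as a VNO sustentacular marker in the study and by neither rule, stood at 327, 247 and 344 CPM in marker-positive and at 42.3, 31.0 and 17.9 CPM in marker-negative cells. Fezf2 was thus high in marker-positive cells of each library. Cyp2a5, a cytochrome P450 and the other such marker in the study, stood at 110, 121 and 954 CPM in marker-positive cells. It was low in both P10 libraries and high at 3 months, and its sequence is close to that of Cyp2a4, so that reads may be shared between them.

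**Figure D1:**
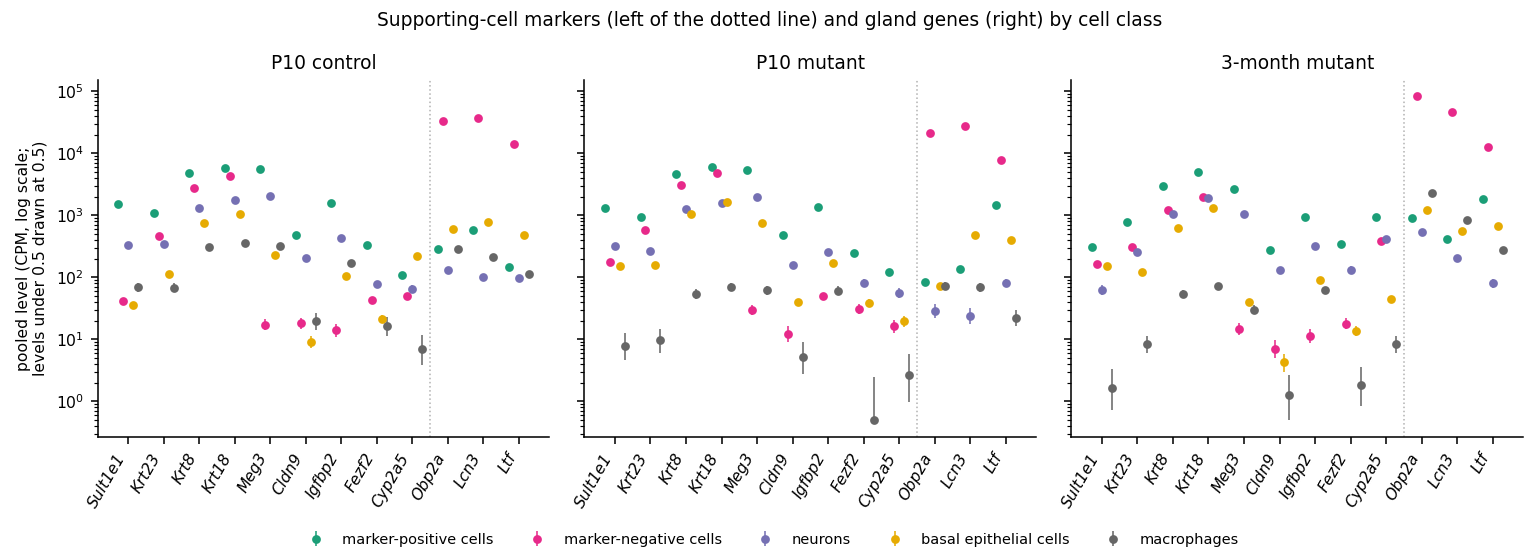
Level of 12 genes (pooled CPM, log axis, values under 0.5 drawn at 0.5) in 5 cell classes of each library; bars are exact Poisson 95% intervals. Fezf2, which neither rule used, stands at 327, 247 and 344 CPM in marker-positive cells, while Obp2a, Lcn3 and Ltf stand highest in marker-negative cells.

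The marker-negative cells were led by genes of nasal glands. Among the genes with the highest ratio of marker-negative over marker-positive CPM in the P10 control were Lcn11 at 6673 against 50.1 CPM, Obp2a at 33367 against 286 CPM and Ltf at 13929 against 146 CPM. Lcn11 and Obp2a encode secreted lipocalins, and Ltf encodes the antimicrobial protein lactotransferrin. Obp2a, Obp2b, Lcn3 and Dmbt1 were among the 12 leading genes of all 3 libraries, and Aqp5, a water channel of gland cells, was among those of the P10 control at 521 against 5.53 CPM. Among genes ranked against all other kept cells of the P10 control, the chosen cells as a whole were likewise led by secretory genes. Obp1a stood first at 961 CPM in chosen cells and 2.79 CPM in other kept cells, but at 0.0645 CPM in chosen cells of the P10 mutant and 143 CPM at 3 months. Marker-negative cells are therefore given no cell type name, and marker-positive cells carry most of what follows.

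Marker-positive cells held few UMIs of the genes that mark sustentacular cells of the main olfactory epithelium. Cyp2g1 stood at 0.553, 0.434 and 1.95 CPM, Sec14l3 had 2, 1 and 0 UMIs, and Ermn stood at 9.29, 6.59 and 7.79 CPM in the P10 control, P10 mutant and 3-month mutant. Foxj1, which marks ciliated cells, stood at 1.44, 1.39 and 1.65 CPM, and Trpm5, which marks tuft cells, had 2, 0 and 1 UMIs. Omp stood at 2.99, 2.51 and 2.25 CPM. Ermn, with 84, 76 and 52 UMIs, stood above the others, none of which passed 3 CPM in any library.

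A wider set of genes marked the marker-positive cells. In the P10 control, genes outside the rules were ranked by the interval bound of the ratio of marker-positive cells over kept cells that were not chosen. Marker-negative cells were thus on neither side of the ratio. The first 20 genes are given as a description, since the cells were chosen by expression. Pld5, a phospholipase D family member, led with 22.5 against 2.35 CPM in the P10 control, a ratio of 9.55 (interval 7.55 to 12.1), and its ratio was 6.03 in the P10 mutant. Ednrb, the endothelin receptor type B, stood at 361, 271 and 202 CPM in the 3 libraries. Otop1, a proton channel, stood at 98.8, 61.3 and 118 CPM, and Car9, a carbonic anhydrase, at 253, 234 and 219 CPM. Agr3, a protein disulfide isomerase family member, stood at 222, 183 and 185 CPM. These levels stayed within a factor of 2 of each other across the 3 libraries. Hsd17b2, which inactivates oestradiol and testosterone, stood at 180, 175 and 285 CPM. Akap12, a scaffold for protein kinase A, stood at 855, 710 and 802 CPM, the highest level among the 20 in each library. Gdnf, a neurotrophic factor, stood at 28.1, 21.2 and 11.1 CPM. Ptgds, which makes prostaglandin D2, and Cldn6, a claudin, differed more with age, at 71.7, 43.9 and 4.34 CPM and at 116, 105 and 27.3 CPM.

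**Figure D2:**
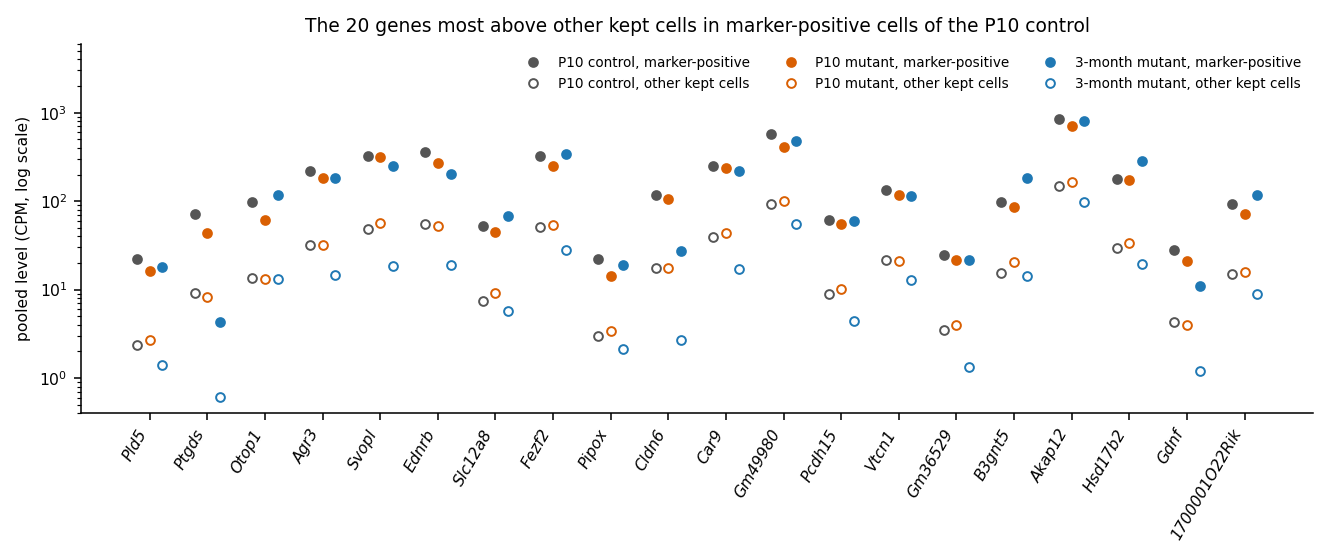
Pooled CPM (log axis) of the 20 genes ranked highest in marker-positive cells over other kept cells of the P10 control. Filled points are marker-positive cells and open points other kept cells, in 3 libraries, and intervals are not drawn. Other kept cells leave out the marker-negative cells. Ednrb stands at 361, 271 and 202 CPM, and Ptgds stands at 71.7, 43.9 and 4.34 CPM.

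Genes differed in how much they varied among the marker-positive cells of a library. The squared coefficient of variation beyond Poisson counting was 0.169, 0.15 and 0.21 for Krt8 and 0.195, 0.173 and 0.2002 for Krt18 in the P10 control, P10 mutant and 3-month mutant. The cell rule required these 2 keratins, so that their low variation is in part set by it. The value was 0.592, 0.607 and 0.616 for Meg3, which the division of cells used. Sult1e1, an oestrogen sulfotransferase of the cell rule on chromosome 5 (GRCm38 87575969 to 87591594, minus strand), had values of 0.397, 0.324 and 2.26, and its pooled level was 1508, 1312 and 313 CPM. At 3 months the median cell held 119 CPM of Sult1e1, and 64.6% of marker-positive cells held a UMI, against 96.8% and 98.3% in the P10 libraries. Sult1e1 was thus patchy at 3 months, where Krt23 carried most cells over the limit with UMIs in 97.7% of them. Tfap2e had a value of 3.49 at P10 and 3.79 at 3 months in the mutants. Among the genes of the highest variation were transcripts of other cell types, led by Lcn3 with 204 in the P10 mutant and by Spp1, a secreted phosphoprotein of bone and macrophages, with 69.0 in the P10 control.

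Tfap2e was detected in cells chosen by the rule in both mutant libraries. The gene lies on chromosome 4 (GRCm38 126716006 to 126736240, minus strand), and UMIs of the endogenous gene and of the transgene could not be told apart. In all chosen cells the level of Tfap2e was 0.684 CPM (0.328 to 1.26, 10 UMIs) in the P10 control, against 313 CPM (304 to 322) for the P10 mutant and 124 CPM (118 to 130) for the 3-month mutant. For the P10 mutant it was 680 CPM in the 101 cells under the 5% mitochondrial limit. The control was near 0 and both mutants were far above it. In marker-positive cells the levels of Tfap2e were 0.885, 291 and 174 CPM, and in neurons, taken as cells with at least 3 UMIs of Omp and 5 of receptors, they were 19.8, 475 and 206 CPM. Gt(ROSA)26Sor, the transcript of the Rosa26 locus that holds the transgene, stood at 37.5 CPM (33.6 to 41.7) in marker-positive cells of the P10 control, against 13.5 CPM (11.5 to 15.8) for the P10 mutant and 21.6 CPM (18.2 to 25.4) for the 3-month mutant. It was lower in both mutants than in the control.

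Tfap2e UMIs were also found in other cell classes. Macrophages and endothelial cells were taken as cells that should lack the gene, and the source of the UMIs in basal epithelial cells was not tested. Thinned to 3000 UMIs per cell, 0 of 383, 151 of 513 and 79 of 351 marker-positive cells held a Tfap2e UMI in the P10 control, the P10 mutant and the 3-month mutant, which is 0%, 29.4% and 22.5%. The 0 of 383 allows up to 0.783% when taken as under 3 counts, with an exact upper bound of 0.959%. Without thinning the shares were 1.85%, 45.9% and 40.8% at median depths of 17861, 15667 and 14223 UMIs. In macrophages the thinned shares were 0%, 2.27% and 3.1%, and without thinning they were 0.893%, 10.9% and 5.15% at median depths of 7780, 9959 and 6688 UMIs. In endothelial cells the thinned shares were 0%, 4.42% and 3.08%. In basal epithelial cells they were 0.426%, 13.7% and 4.42%, and without thinning 1.84%, 37.7% and 16.1%. Marker-positive cells of the mutants thus stood above each of these classes after thinning, with the smallest gap to the basal epithelial cells of the P10 mutant. Thinning left out 50, 62 and 2 marker-positive and 68, 53 and 234 macrophage barcodes with under 3000 UMIs.

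The Tfap2e UMIs of the mutants were concentrated in a minority of cells. At least 5 Tfap2e UMIs were found in 118 of 575 marker-positive cells of the P10 mutant (20.5%, interval 17.3 to 24.1%) and in 67 of 353 of the 3-month mutant (18.98%, interval 15.02 to 23.5%). The count was 0 of 433 in the P10 control, which allows a share of up to 0.693% when taken as under 3 counts, with an exact upper bound of 0.848%. These cells are called Tfap2e-high, a class set after the data were seen. With 5 UMIs or more there were 0, 0 and 0 macrophages, 0, 1 and 0 endothelial cells, 0, 16 and 5 basal epithelial cells and 9, 52 and 39 neurons in the 3 libraries. Just below 5 UMIs, 22 and 7 marker-positive cells of the mutants held 3 or 4 UMIs, 10 and 13 held 5 to 7, and 61 and 17 held 20 or more. With the mitochondrial limit at 5%, Tfap2e-high cells were 26 of 67 (38.8%, interval 27.1 to 51.5%) and 38 of 92 marker-positive cells (41.3%, interval 31.1 to 52.0%) of the mutants and 0 of 74 of the control, where under 3 counts allows up to 4.05% and the exact upper bound is 4.86%. Within Tfap2e-high cells the median level was 1095 CPM at P10 and 780 CPM at 3 months. Omp stood at 3.11 CPM and 1.75 CPM in the Tfap2e-high cells of the mutants, against 335 and 354 CPM in their neurons. Tfap2e-high cells were deeper than the rest of the marker-positive cells, which are called Tfap2e-low. Median depths were 20808 and 15100 UMIs at P10 and 20190 and 13800 UMIs at 3 months. Median mitochondrial shares of high and low cells were 6.64% and 7.62% at P10 and 4.33% and 7.09% at 3 months. The part of depth and of mitochondrial share in the class was not tested.

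**Figure D3:**
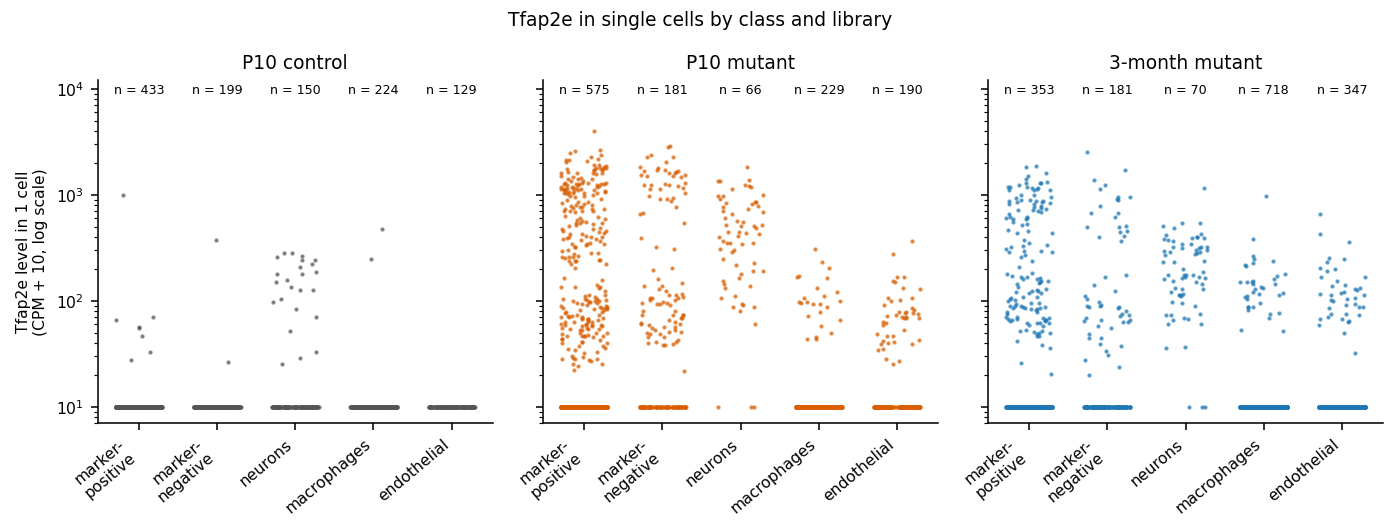
Tfap2e level of each cell (CPM + 10, log axis) in 5 cell classes of each library, with the number of cells above. A minority of marker-positive cells of both mutants reach neuronal levels, while at most 1 Tfap2e UMI was found in any marker-positive cell of the P10 control.

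Tfap2e-high cells of the P10 mutant differed from Tfap2e-low cells in many genes. Of 10957 genes with at least 50 UMIs, 549 (5.01%) stood at least 2-fold higher and 1058 (9.66%) at least 2-fold lower in Tfap2e-high cells, with a median log2 ratio of -0.17 over all genes. In the 3-month mutant 423 of 9278 genes (4.56%) stood at least 2-fold higher and 688 (7.42%) at least 2-fold lower. The classes were set by Tfap2e, so its own ratio is no result. The 3-month mutant is a library that the P10 comparison did not use. Of 394 genes at least 2-fold higher in the P10 mutant and measured in both, 256 (65.0%) were also at least 2-fold higher in the 3-month mutant, where 4.44% of all 9149 shared genes were. Of 644 genes lower in the P10 mutant, 304 (47.2%) were also lower in the 3-month mutant, where 6.95% of all were. The ratio had an interval on the other side of 1 for 7 of the higher and 11 of the lower genes. Under the 5% mitochondrial limit the genes lower in the P10 mutant numbered 407.

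Among the 12 named genes higher in Tfap2e-high cells of the P10 mutant, Cyp26a1, Scgb1c1 and Lgals7 stood first, and Lcn2 and Ltf are genes of host defence. Lcn2, a lipocalin that binds bacterial siderophores, stood at 38.9 CPM in marker-positive cells of the P10 control, 263 CPM in Tfap2e-low and 7963 CPM in Tfap2e-high cells of the P10 mutant, and 184 and 6356 CPM in Tfap2e-low and Tfap2e-high cells of the 3-month mutant. The high over low ratio was 30.2 (28.9 to 31.6) and 34.6 (32.3 to 37.1). Ltf stood at 169 and 4748 CPM in low and high cells of the P10 mutant and at 482 and 5742 CPM in those of the 3-month mutant. Other defence genes given here are named from the comparison of the P10 libraries. S100a8 and S100a9 encode the subunits of calprotectin, a metal-binding protein of neutrophils and stressed epithelia. S100a8 stood at 29.9 CPM in the control, 117 and 1045 CPM in low and high cells of the P10 mutant, and 54.2 and 527 CPM at 3 months. Il1f6, an interleukin 1 family cytokine, stood at 4.98 CPM in the control, 17.8 and 315 CPM at P10 and 2.42 and 198 CPM at 3 months. Tlr2, a receptor of bacterial lipoproteins, stood at 9.29 CPM in the control, 14.5 and 272 CPM at P10 and 11.9 and 133 CPM at 3 months. Each of these 5 genes stood higher in the Tfap2e-high than in the Tfap2e-low cells of both libraries. For Lcn2 and Ltf the direction at P10 was set by the naming, and the other 3 were named as higher in the P10 mutant. The contrast of high and low cells at 3 months was not used for naming. Under the 5% mitochondrial limit the difference in S100a8 was smaller, at 217 and 324 CPM in low and high cells at P10 and 133 and 727 CPM at 3 months, while Lcn2 stood at 475 and 10031 CPM and at 428 and 9323 CPM.

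Several of these genes are also used as markers of immune cells. The immune marker list, which holds S100a8, S100a9 and Ltf, summed to 276 CPM in the control, 483 and 6288 CPM in low and high cells of the P10 mutant, and 862 and 6924 CPM at 3 months. Ptprc, the pan-leukocyte gene, stood at 5.41 and 2.49 CPM in low and high cells of the P10 mutant and at 17.3 and 8.75 CPM at 3 months, and C1qa, a macrophage gene, at 14.2 and 1.25 CPM and at 57.8 and 89.8 CPM. Ptprc was not higher in the Tfap2e-high cells of either library. In the 111 Tfap2e-high cells of the P10 mutant with no UMI of either gene, S100a8 stood at 826 CPM and Lcn2 at 7631 CPM, against 62.5 and 292 CPM in 423 such Tfap2e-low cells. In the 3-month mutant S100a8 stood at 383 CPM and Lcn2 at 6299 CPM in 57 such cells, against 9.56 and 216 CPM in 229. In these cells the difference was larger for S100a8 and somewhat smaller for Lcn2 than in all marker-positive cells.

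Retinoid genes were at opposite ends of a pathway. Cyp26a1, which degrades retinoic acid, stood at 56.4 CPM in Tfap2e-high cells of the P10 mutant, where Tfap2e-low cells held 2 UMIs (0.24 CPM), a ratio of 234 (64.0 to 1950). At 3 months it stood at 45.5 and 0.20 CPM, a ratio of 226 (39.4 to 9033). Aldh1a3, which makes retinoic acid, stood at 3.76 CPM in the control, 2.65 and 81.3 CPM in low and high cells of the P10 mutant and 2.42 and 92.8 CPM at 3 months. Both genes were high in Tfap2e-high cells and low in the other cells.

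Since the classes differ in an AP-2 factor, the promoters of the named genes were searched for the AP-2 motif GCCNNNGGC, which reads the same on both strands. The sequences of 3 named higher genes with a match are shown to give its place, and Lcn2 is shown as the named gene of the highest level, without a match. Cyp26a1 was named from the Tfap2e-high cells, and S100a8 and S100a9 from the P10 mutant over the P10 control. No gene that stood lower is shown. They come from RefSeq on GRCm38.p6, run 5′ to 3′ on the strand of the gene from 250 bases before to 50 bases after its start, and have the motif in capitals. Cyp26a1 is the plus strand of chr19:37697558-37697857, S100a8 the plus strand of chr3:90668821-90669120, S100a9 the minus strand of chr3:90695672-90695971 and Lcn2 the minus strand of chr2:32387690-32387989.
Cyp26a1: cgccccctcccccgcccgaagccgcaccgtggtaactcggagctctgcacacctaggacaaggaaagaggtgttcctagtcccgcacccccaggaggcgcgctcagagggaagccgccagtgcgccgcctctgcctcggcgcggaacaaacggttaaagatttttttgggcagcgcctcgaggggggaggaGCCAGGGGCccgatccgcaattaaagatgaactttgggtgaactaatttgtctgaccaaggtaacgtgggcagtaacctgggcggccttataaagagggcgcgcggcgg
S100a8: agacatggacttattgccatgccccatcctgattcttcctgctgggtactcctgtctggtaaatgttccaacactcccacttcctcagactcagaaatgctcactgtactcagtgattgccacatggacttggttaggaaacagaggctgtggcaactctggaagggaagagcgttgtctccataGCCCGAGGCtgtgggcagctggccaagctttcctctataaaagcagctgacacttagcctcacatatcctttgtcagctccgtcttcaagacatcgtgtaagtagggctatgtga
S100a9: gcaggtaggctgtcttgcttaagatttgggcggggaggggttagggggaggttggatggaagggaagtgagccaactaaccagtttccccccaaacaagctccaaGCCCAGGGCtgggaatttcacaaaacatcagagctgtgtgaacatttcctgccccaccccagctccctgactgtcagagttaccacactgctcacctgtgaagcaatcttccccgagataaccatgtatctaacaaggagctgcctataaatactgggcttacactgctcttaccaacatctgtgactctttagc
Lcn2: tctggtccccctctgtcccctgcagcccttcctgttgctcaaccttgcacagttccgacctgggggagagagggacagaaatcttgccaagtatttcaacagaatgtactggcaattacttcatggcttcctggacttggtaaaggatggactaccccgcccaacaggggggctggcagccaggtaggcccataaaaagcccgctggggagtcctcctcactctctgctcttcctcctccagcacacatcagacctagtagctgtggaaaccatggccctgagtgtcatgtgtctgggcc
The motif began at base 192 in Cyp26a1, base 186 in S100a8 and base 106 in S100a9. Of the first promoter of each of 27025 genes, 4461 (16.5%) held it. Of the promoters matched to named genes, it was in 1 of 11 that stood higher and 4 of 10 that stood lower in Tfap2e-high cells of the P10 mutant, and in 2 of 9 that stood higher in the P10 mutant than in the P10 control. A match is a run of letters, and binding was not measured.

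Epithelial and signalling genes differed as well. Krt19 and Krt7, simple-type keratins, stood at 514 and 132 CPM in the control, at 488 and 137 CPM in Tfap2e-low cells and at 1663 and 398 CPM in Tfap2e-high cells of the P10 mutant. At 3 months Krt19 stood at 190 CPM in low and 2182 CPM in high cells, and Krt7 at 44.9 and 344 CPM. Muc1, a membrane mucin, stood at 41.4 CPM in the control, 43.9 and 279 CPM at P10 and 35.3 and 202 CPM at 3 months. The control resembled the Tfap2e-low cells of its own age for these genes. In cells with no Ptprc or C1qa UMI, Fgfbp1, which encodes a carrier of fibroblast growth factors, stood at 151 CPM in the control, 130 and 848 CPM in low and high cells of the P10 mutant and 186 and 947 CPM at 3 months. Wnt4, a secreted Wnt ligand, stood at 5.42 CPM in the control, 6.01 and 154 CPM at P10 and 5.84 and 165 CPM at 3 months. Wnt5a, another ligand, went the other way, with 104 and 37.7 CPM at P10 and 227 and 106 CPM at 3 months. Ccl20, a chemokine for dendritic cells and lymphocytes, stood at 26.0 and 376 CPM at P10 but at 6.04 and 22.7 CPM at 3 months. Lif, a cytokine, stood at 13.1 and 90.9 CPM at P10 and 11.3 and 74.7 CPM at 3 months, and Edn1, endothelin 1, at 18.4 and 67.6 CPM and at 7.05 and 122 CPM. Of the 41 secreted signals listed, 30 were measured at P10, of which 10 stood at least 2-fold higher and 10 at least 2-fold lower, and of 20 measured at 3 months 8 stood higher and 5 lower. Over all genes, 5.01% stood higher and 9.66% lower at P10, and 4.56% and 7.42% at 3 months.

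Several sustentacular genes were lower in Tfap2e-high cells, and the list of markers was mixed. Of the 9 sustentacular markers listed, 4 were at least 2-fold lower and 0 higher at P10, and 3 lower and 1 higher at 3 months, where 9.66% and 7.42% of all genes were lower. The list had median log2 ratios of -0.31 and -0.51, against -0.17 and -0.11 over all genes. Meg3 and Cldn9 defined marker-positive cells as a whole and stood at 6515 and 583 CPM in Tfap2e-low against 2736 and 222 CPM in Tfap2e-high cells of the P10 mutant, and at 3194 and 333 CPM against 1179 and 116 CPM at 3 months. Igfbp2 differed little, at 1335 and 1351 CPM at P10 and 903 and 1037 CPM at 3 months. Fezf2 stood at 304 against 99.6 CPM at P10, a ratio of 0.33 (0.29 to 0.37), and at 411 against 147 CPM at 3 months, a ratio of 0.36 (0.31 to 0.41). Cldn7, a claudin, stood at 1799 against 921 CPM and at 1831 against 1016 CPM. Sox2, a transcription factor of supporting and progenitor cells, stood at 392 against 228 CPM and at 788 against 412 CPM. Hey1, a target of Notch signalling, stood at 271 against 98.4 CPM and at 215 against 86.9 CPM. All 4 of these genes outside the class rule were lower in Tfap2e-high cells of both libraries, but only Fezf2 is on the marker list. Of 31 junction genes 3 stood at least 2-fold higher and 3 lower at P10, and of 28 at 3 months 5 and 2. Of 17 and 14 Notch pathway genes 1 stood higher and 1 lower at each age. Control levels were 327 CPM for Fezf2, 1895 CPM for Cldn7, 446 CPM for Sox2 and 268 CPM for Hey1. These control levels were nearer to the Tfap2e-low than to the Tfap2e-high cells of the P10 mutant. Under the 5% mitochondrial limit Fezf2 stood at 423 against 32.0 CPM at P10 and 363 against 37.6 CPM at 3 months, and Krt19 in low and high cells at 709 and 2409 CPM and at 279 and 2945 CPM. Hey1 stood at 350 against 16.0 CPM and at 187 against 18.8 CPM, and Meg3 at 3964 against 984 CPM and at 2155 against 466 CPM. Not all markers of the list were lower. Under that limit Cyp2a5 stood at 89.7 against 106 CPM at P10, with overlapping intervals, and at 728 against 234 CPM at 3 months. The interval of the ratio lay above 1 for 2 of the 9 markers at P10 and 4 at 3 months, and below 1 for 6 and 5. Median Krt18 was 6954 CPM in Tfap2e-high and 5679 CPM in all marker-positive cells at P10, and 5922 and 4528 CPM at 3 months. Sult1e1 stood at 1360 and 1186 CPM in low and high cells at P10 and at 215 and 597 CPM at 3 months. By Fezf2, Meg3 and Cldn9 the label of sustentacular cells therefore held less well for the Tfap2e-high than for the Tfap2e-low cells. Whether the rule took in cells of another epithelium there was not tested.

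**Figure D4:**
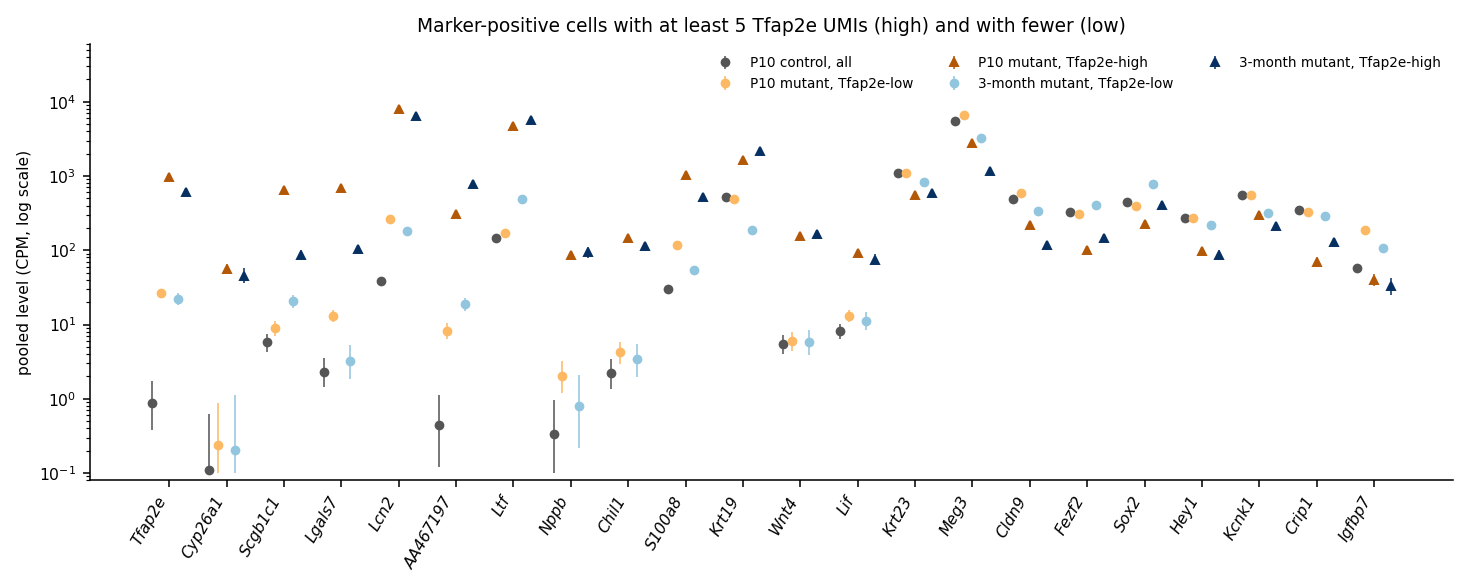
Pooled CPM (log axis) of 22 genes in marker-positive cells of the P10 control and in Tfap2e-low and Tfap2e-high marker-positive cells of both mutant libraries, with exact Poisson 95% intervals. Lcn2, Krt19 and Wnt4 stand higher and Fezf2, Hey1 and Meg3 lower in Tfap2e-high cells of both libraries, and the Tfap2e-low cells of the P10 mutant lie near the control for most genes.

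Phase II enzymes split within their list. Over all genes, 5.01% stood at least 2-fold higher and 9.66% at least 2-fold lower in Tfap2e-high cells at P10, and 4.56% and 7.42% at 3 months. Of 28 phase II and glutathione genes measured at P10, 7 stood at least 2-fold higher and 7 at least 2-fold lower in Tfap2e-high cells, and at 3 months 6 and 8 of 26. Mgst1, a microsomal glutathione transferase, stood at 288 and 834 CPM in low and high cells at P10 and at 462 and 960 CPM at 3 months, while Gstm1, a cytosolic one, stood at 331 and 163 CPM and at 958 and 432 CPM. Gstm5 stood at 151 and 696 CPM and at 140 and 359 CPM, and it shares sequence with its family members. Ccnd1, cyclin D1, a member of the Notch pathway list, stood at 22.2 and 202 CPM at P10 and 46.9 and 219 CPM at 3 months. Cdkn1c, a cyclin-dependent kinase inhibitor of the imprinted list, also stood higher in high cells, at 93.5 and 412 CPM and at 41.7 and 187 CPM. Of 16 genes of the cell cycle list, 7 were at least 2-fold lower and 0 higher at P10, whereas at 3 months 6 had enough UMIs, with 1 higher and 0 lower.

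The P10 mutant was then compared with the P10 control. In all chosen cells, 389 of 12996 genes (2.99%) stood at least 2-fold higher and 216 (1.66%) at least 2-fold lower in the P10 mutant. Beside Tfap2e, the 12 named higher genes held Lgals7, a galectin of stratified epithelia, at 308 against 7.18 CPM in the control, a ratio of 42.9 (35.3 to 52.5). Il1f6 stood at 97.1 against 6.09 CPM, S100a8 at 521 against 48.2 CPM, S100a9 at 326 against 46.0 CPM, Lcn2 at 2626 against 414 CPM and Tlr2 at 76.9 against 10.6 CPM. Of these genes, Lgals7 and Lcn2 were also named from the Tfap2e-high cells. Il1f6, S100a8 and Tlr2 were given above because this comparison named them, so their place there is no separate result. Without cells of 5 or more Tfap2e UMIs the higher genes numbered 220. The number was 229 with cells chosen after thinning, 238 without cells that held 3 or more UMIs of other types, and 153 to 634 with the gene minimum at 200 or 20 UMIs. Scgb1c1, a secretoglobin, stood at 219 against 56.3 CPM and Pmaip1, a pro-apoptotic BCL2 family gene, at 56.7 against 11.1 CPM. Leading genes of the marker-negative cells were among the lower genes. Obp2a stood at 5417 against 12914 CPM, Reg3g, an antimicrobial lectin, at 225 against 683 CPM, and Cldn10, a claudin of ion-transporting glands, at 87.5 against 347 CPM. Of 10 gland markers measured, 9 were at least 2-fold lower, and marker-negative cells were 23.9% of the chosen cells in the mutant against 31.5% in the control. The part of that share in these ratios was not tested. In marker-positive cells alone the log2 ratio of Reg3g was 0.13, and with cells chosen after thinning that of Obp2a was 0.71, so their direction depended on the cells taken.

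In marker-positive cells, 335 of 12142 genes (2.76%) stood at least 2-fold higher and 111 (0.914%) at least 2-fold lower in the P10 mutant. Of the 9 sustentacular markers 0 reached 2-fold in either direction, with a median log2 ratio of -0.03 over the list and -0.03 over all genes. All of these markers but Fezf2 and Cyp2a5 were used to choose or divide the cells, so that their similar levels are in part set by the selection. Of 34 secreted signals 8 stood higher and 0 lower, and of 17 mucins and secreted proteins 5 stood higher and 0 lower. In Tfap2e-low marker-positive cells, 196 of 11829 genes (1.66%) stood at least 2-fold higher than in the control and 64 (0.541%) at least 2-fold lower. Tfap2e-low cells did not all lack Tfap2e, which stood at 26.45 CPM in them against 0.885 CPM in the control. Of the 457 Tfap2e-low cells, 311 held 0 Tfap2e UMIs. Within those Tfap2e-low cells 0 of 20 phase I genes reached 2-fold in either direction, and of 32 secreted signals 2 were higher and 0 lower. Lcn2 stood at 263 against 38.9 CPM, but 21.1% of its UMIs were in 1 cell, and S100a8 stood at 117 against 29.9 CPM with 19.6% in 1 cell. Under the 5% mitochondrial limit Lcn2 stood at 475 against 16.4 CPM and S100a8 at 217 against 12.1 CPM. In cells with no Ptprc or C1qa UMI, S100a8 stood at 62.5 CPM in Tfap2e-low cells of the mutant and 12.7 CPM in the control. Slc7a11, the cystine transporter, stood at 58.3 against 29.5 CPM, and Id3, an inhibitor of basic helix-loop-helix factors, at 107 against 57.5 CPM. Hes6, a helix-loop-helix gene of neuronal precursors, stood at 29.1 against 66.8 CPM. No list held more than 4 genes past 2-fold here, except lists of other cell types. Of 6 gland markers 6 were lower, of 9 immune markers 4 were higher, and of 12 stromal and bone markers 5 were higher and 1 lower.

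The mutant libraries of both ages were compared in the same way. In all chosen cells, 477 of 12773 genes (3.73%) stood at least 2-fold higher and 1375 (10.8%) at least 2-fold lower at 3 months, with a median log2 ratio of -0.25 over all genes, so that values below are to be read against that shift. Gm42418, whose locus overlaps ribosomal RNA sequence, took 24087 CPM at 3 months against 1554 CPM at P10, and the 2 libraries were counted with different versions of Cell Ranger. Gland genes were again prominent, with Bpifa1, an airway secretory protein, at 6260 against 0.451 CPM. In marker-positive cells, 513 of 11930 genes (4.30%) stood at least 2-fold higher and 955 (8.01%) at least 2-fold lower, and in Tfap2e-low marker-positive cells 458 of 11277 (4.06%) stood higher and 915 (8.11%) lower, with medians over all genes of -0.03 and -0.04. The values that follow are for Tfap2e-low marker-positive cells.

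Antigen presentation genes were higher at 3 months. Of 28 listed genes, 13 were at least 2-fold higher and 0 lower, with a median log2 ratio of 0.92, where 4.06% of all genes were higher. Cd74, the invariant chain of MHC class II, stood at 2700 CPM in marker-positive cells of the P10 control, 2502 CPM in those of the P10 mutant and 6349 CPM at 3 months. H2-Ab1, an MHC class II chain, stood at 560, 546 and 2050 CPM, H2-Aa at 347, 366 and 1510 CPM, and H2-Eb1 at 578, 550 and 1968 CPM. Both P10 libraries were alike and the 3-month library stood above them. After thinning to 3000 UMIs a Cd74 UMI was found in 89.6%, 89.9% and 99.4% of marker-positive cells, against 8.94%, 9.15% and 47.0% of basal epithelial cells and 62.8%, 61.4% and 99.2% of macrophages. Without thinning the shares were 93.8%, 96.7% and 100% in marker-positive and 26.6%, 30.7% and 75.0% in basal epithelial cells. After thinning, the Cd74 shares were 8.87%, 11.6% and 57.2% in endothelial cells and 31.5%, 27.3% and 42.9% in neurons. The share was thus higher at 3 months in each of these classes, while marker-positive cells stood above basal epithelial cells in each library. The part of free RNA in these shares was not tested. A Ptprc UMI was found in 3.70%, 3.48% and 7.93% of marker-positive cells, and in cells with no Ptprc or C1qa UMI Cd74 stood at 2683, 2529 and 6129 CPM. In marker-negative cells Cd74 stood at 369, 316 and 950 CPM. Among class I genes, B2m stood at 238, 286 and 760 CPM in marker-positive cells and H2-K1 at 435, 637 and 1387 CPM, although close sequences can share reads within that family. Under the 5% mitochondrial limit the median of the list was 1.14 in Tfap2e-low marker-positive cells and 0.69 in all marker-positive cells, where Cd74 stood at 2473, 2191 and 6469 CPM, but over all chosen cells it was 0.13. Isg15, an interferon-induced gene, went the other way in Tfap2e-low cells, at 607 CPM in the P10 mutant and 317 CPM at 3 months.

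Enzymes that act on foreign compounds were higher at 3 months as well. Of 20 phase I genes measured, 9 stood at least 2-fold higher and 1 lower, with a median log2 ratio of 0.96. Over all genes 4.06% stood higher and 8.11% lower. Cyp2a5 stood at 128 CPM in the P10 mutant and 1078 CPM at 3 months, a ratio of 8.40 (7.86 to 8.98). Por, the reductase that supplies electrons to cytochromes P450, stood at 496 and 986 CPM, just under 2-fold. Ces1f, a carboxylesterase, stood at 0.481 and 50.6 CPM and Ephx1, an epoxide hydrolase, at 60.1 and 180 CPM. Of 26 phase II and glutathione genes, 7 were higher and 2 lower, with a median of 0.50. Ugt2a2, a glucuronosyltransferase on chromosome 5 that shares exons with Ugt2a1, stood at 7.57 and 219 CPM, while Ugt2a1 had 0 UMIs in marker-positive cells of all 3 libraries. Gpx2, a glutathione peroxidase, stood at 125 and 676 CPM, Nqo1, a quinone reductase, at 18.3 and 134 CPM and Gstm1 at 331 and 958 CPM. Sult1e1, a phase II gene that the cell rule used, stood at 1360 and 215 CPM. Most of the named enzymes were thus higher at 3 months and Sult1e1 was lower. Under the 5% mitochondrial limit the medians were 0.81 for phase I and 0.55 for phase II genes in these cells, and -0.10 for phase II over all chosen cells. Secreted proteins of mucosal defence and metal handling were among the named genes. Pigr, the receptor that carries IgA across epithelia, on chromosome 1 (GRCm38 130826684 to 130852249, plus strand), stood at 8.30 and 527 CPM, a ratio of 63.5 (50.04 to 81.9), and Cp, ceruloplasmin, at 3.85 and 263 CPM.

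Imprinted and cell cycle genes were lower at 3 months, while junction genes differed among themselves. Of 16 imprinted genes measured, 8 were at least 2-fold lower and 0 higher, with a median log2 ratio of -0.99. Meg3, which is also a class marker, stood at 6515 and 3194 CPM, and Rian, transcribed from the same imprinted region, at 1002 and 314 CPM. Grb10, an adaptor of growth factor receptors, stood at 51.2 and 10.3 CPM, and Gnas, a G protein subunit, at 997 and 958 CPM. The list thus held genes without a large difference. Of 16 cell cycle genes 13 were at least 2-fold lower and 0 higher, with a median of -2.38, though their levels were low. Mki67 stood at 25.7 and 5.44 CPM and Top2a at 38.2 and 6.65 CPM. Of 30 junction genes 8 were at least 2-fold lower and 1 higher, with a median of -0.42 against -0.04 over all genes, of which 8.11% were lower. Cldn4 stood at 1240 and 238 CPM and Cldn6 at 128 and 29.2 CPM, while Cldn7 stood at 1799 and 1831 CPM. Claudins of these cells therefore differed among themselves with age. Ovol1, an epithelial transcription factor, stood at 160 and 16.5 CPM, and Sox2 at 392 and 788 CPM.

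**Figure D5:**
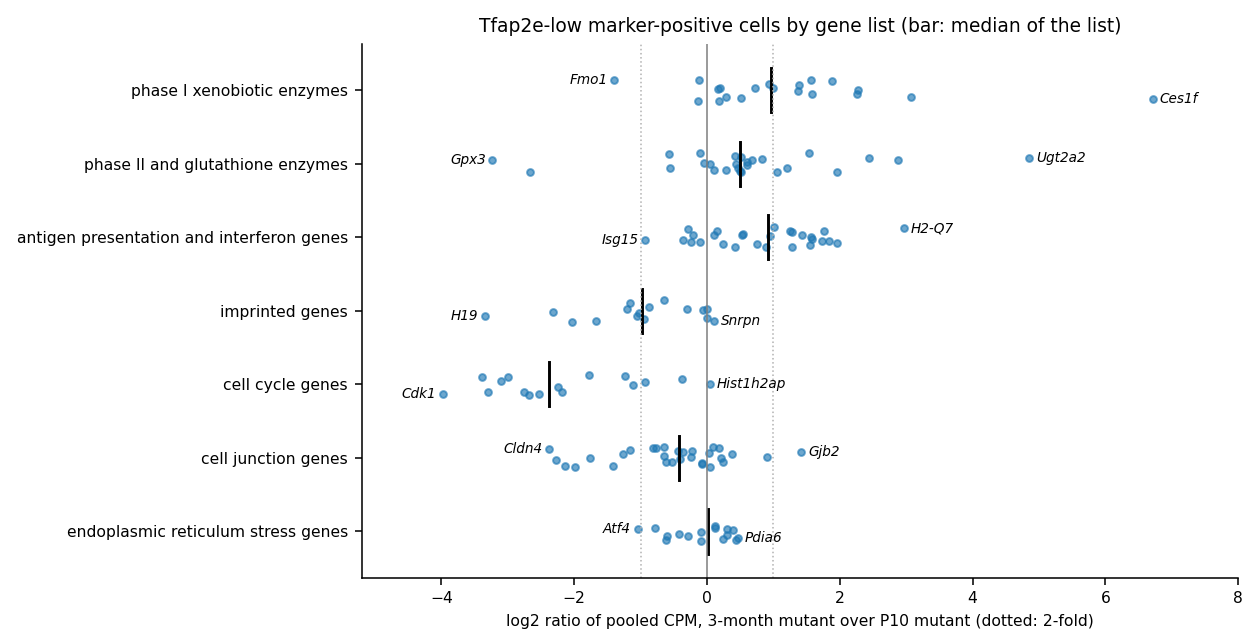
Log2 ratio of 3-month mutant over P10 mutant CPM for each measured gene of 7 lists in Tfap2e-low marker-positive cells; points are genes, bars list medians, and the lowest and highest gene of each list are named. Antigen presentation genes have a median of 0.92 with 13 of 28 at least 2-fold higher, and cell cycle genes a median of -2.38 with 13 of 16 at least 2-fold lower.

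Transcripts of other cell types moved with age in the same libraries. The 12 stromal and bone markers summed to 2088, 2007 and 347 CPM in marker-positive cells of the P10 control, P10 mutant and 3-month mutant, and the 18 gland markers to 1013, 243 and 1866 CPM. Col1a1, a collagen of fibroblasts and bone, had UMIs in 71.1%, 59.7% and 6.52% of marker-positive cells. Igkc, an antibody light chain, stood at 7.97, 3.64 and 1663 CPM and had UMIs in 94.6% of the marker-positive cells at 3 months. The 4 red blood cell markers summed to 0.332 and 0.694 CPM at P10 and had 0 UMIs at 3 months. Sparc, a matrix protein at 625 and 73.3 CPM in Tfap2e-low cells, and Lcn4, a lipocalin at 1.32 and 54.8 CPM, are named genes that go with the stromal and gland transcripts, and the part of free RNA in their ratios was not tested.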

How the data were processed

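Single-cell 3′ RNA-seq libraries of mouse VNO were counted by the authors with Cell Ranger, and the deposited matrices hold raw UMI counts per gene and barcode on mm10. Per the file headers the P10 libraries were counted with Cell Ranger 4.0.0 and the 3-month library with 6.0.1. Pairs of libraries shared 21 to 30 barcodes, of which 1 was a chosen cell in both. Doublets were not removed, the highest scrublet scores were left out as an alternative, and free RNA was not corrected. Counts were summed per library and class with Python 3.11.15, numpy 2.4.6, scipy 1.17.1 and scanpy 1.11.5, and the ratios were tested on simulated data. Genes needed 50 UMIs in both sums together, and a count of 0 was set to 3 in list medians. Named genes needed UMIs in 20% of the cells of the higher sum and at most 25% of UMIs in 1 cell, and the 12 per direction with the interval bound farthest from 1 were taken, beside members of 26 gene lists. Gene coordinates come from GENCODE on GRCm38. The members and lists were chosen with earlier results of these data known, and the classes by marker share and Tfap2e were set after seeing them.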

Additional observations from a re-analysis of the deposited data

How the results depend on the processing

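No paired analysis was possible because each group has 1 library, and no library could be left out for the same reason. Every value here covers cells or genes of the same 3 libraries, so that agreement between settings says nothing of the spread between animals. Under a mitochondrial limit of 5%, the share of chosen cells was 8.76% for the control, 7.92% for the P10 mutant and 4.16% at 3 months. With at least 1000 genes it was 17.2%, 22.6% and 12.1% in that order. With Sult1e1 plus Krt23 at 2 UMIs or more it was 17.1%, 22.8% and 9.3%, and at 8 or more 10.4%, 15.2% and 5.65%. With the rule applied after thinning to 3000 UMIs it was 12.1%, 17.0% and 4.06%. Leaving out cells with 3 or more UMIs of other types gave 8.95% and 14.1% at P10, and no mitochondrial limit gave 16.7% in the P10 mutant.

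The Tfap2e level of the control was 1.26 CPM after thinning and 2.6 CPM with cells weighted equally. In the P10 mutant and at 3 months it was 680 and 176 CPM under the 5% limit, 252 and 114 CPM with no limit, 297 and 114 CPM at 2 UMIs, 260 and 180 CPM after thinning, 330 and 130 CPM without the highest scrublet scores, 289 and 151 CPM with cells weighted equally, 349 and 138 CPM without mt- genes, Malat1 and Gm42418, and 291 and 174 CPM in marker-positive cells. It was 299 CPM in the P10 mutant without cells of other types, and 135 CPM at 3 months with 8 UMIs.

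For the P10 mutant over control, higher genes numbered 229 after thinning, 238 without cells of other types, 634 and 153 with a gene minimum of 20 and 200 UMIs, and 220 under 5 Tfap2e UMIs. Lower genes numbered 366 under the 5% limit, 363 and 95 at those gene minimums, 111 in marker-positive cells and 143 under 5 Tfap2e UMIs. For the 3-month over the P10 mutant, higher genes numbered 746 and 217 at those minimums, and lower genes 883 after thinning, 723 at 200 UMIs and 892 when scaled to a median ratio of 1. In marker-positive cells, P10 higher genes numbered 220 without cells of other types, P10 lower genes 70 with the marker limit at 0.1% and 329 under the 5% limit, and age comparisons 324 higher and 326 lower under the 5% limit. The Tfap2e-high share was 26.4% in the P10 mutant at 200 CPM or more, 13.3% at 3 months at 10 UMIs or more, and 38.8% and 41.3% under the 5% limit, where 407 genes were lower in Tfap2e-high cells of the P10 mutant.

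List medians (log2) of the P10 comparison over chosen cells were -0.12 for imprinted genes under the 5% limit, a reversal. For antigen presentation they were 0.79 under that limit, 0.21 after thinning and 0.21 in marker-positive cells, and for cell cycle genes -0.39 under that limit, -1.00 after thinning, -0.36 with equal weights and -0.31 under 5 Tfap2e UMIs. For the age comparison, phase II genes reversed to -0.10 under the 5% limit and were 0.53 after thinning, 0.61 with equal weights, 0.51 with median scaling and 0.48 in marker-positive cells. Imprinted genes were -1.83 under the 5% limit, -1.01 after thinning, -1.09 with equal weights and -1.01 in marker-positive cells. Antigen presentation genes were 0.13 under the 5% limit, 0.70 without the highest scrublet scores, 0.69 without cells of other types, 1.05 with median scaling and 0.95 in marker-positive cells. Cell cycle genes were -1.09 after thinning and -2.12 under 5 Tfap2e UMIs. In marker-positive cells alone the log2 ratios of Reg3g, Kcnn4, Pglyrp1 and Fxyd3 in the P10 comparison reversed to 0.13, 1.03, 0.52 and 0.077, and after thinning those of Pglyrp1, Obp2b and Obp2a reversed to 0.21, 1.36 and 0.71. The cause of these reversals was not tested. The alternatives on marker-positive cells, Tfap2e UMIs and the marker limit were chosen after seeing the data.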
